A study of Rattus norvegicus with 6 samples.

Results

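The 9 genes described encode EF-hand calcium-binding proteins of neurons, measured in cultured rat retinal ganglion cells (RGCs), whose axons form the optic nerve. They are Calb1, Calb2, Pvalb, Hpca, Hpcal1, Hpcal4, Ncald, Ncs1 and Vsnl1, chosen by symbol. All 9 are in the deposited table of 17366 transcripts, with 1 transcript each, and all 9 were among the 10390 transcripts tested. The unit is FPKM, fragments per kilobase of transcript scaled to sequencing depth, so levels of different genes can be compared per length. The series holds 3 libraries of vehicle-treated and 3 of Chrdl1-treated RGC cultures. The cells came from Sprague Dawley rats labelled P5, with no transgene or deletion named, and were grown for 10 days before treatment for 12 h. Vehicle was 0.1% BSA in 4 mM HCl, and Chrdl1 (chordin-like 1, a secreted antagonist of bone morphogenetic proteins that astrocytes release) was given at 1 µg/ml. Each library title ends in a numeric code that 1 vehicle and 1 Chrdl1 library share, and the codes, in rising order, are called pairs A, B and C. Neither the meaning of the code nor the number of rats or cultures behind a group is stated in the labels. The p-values therefore reflect only library-to-library spread, which may be technical.

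The proteins fall into buffers and sensors. Calbindin (Calb1), calretinin (Calb2) and parvalbumin (Pvalb) bind calcium in the cytosol and shape the size and duration of its transients. The others are neuronal calcium sensors, myristoylated proteins that change shape on binding calcium and then act on membranes, channels or enzymes. They are hippocalcin (Hpca), Hpcal1, Hpcal4, neurocalcin delta (Ncald), visinin-like 1 (Vsnl1) and neuronal calcium sensor 1 (Ncs1). In the retina, calbindin is best known from horizontal cells, and calretinin and parvalbumin from amacrine cells and subsets of RGCs.

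The read total behind the FPKM scale, recovered from the values, ran from 14546600 reads (vehicle, pair B) to 26551800 (vehicle, pair C). Each library value of the 9 genes rested on 29 to 8997 reads, with fewest for Hpcal4 (29 to 79) and Pvalb (43 to 207). One protocol label says that the RNA came from visual cortex, whereas the other labels name RGC culture. Of 8 RGC markers 7 were in the table, and their summed level was 2070 to 2328 FPKM with vehicle and 1971 to 2321 with Chrdl1. The sum was 5.45 to 135 FPKM for 6 microglial markers, at most 78.7 for 7 amacrine markers, and 52.2 to 90.8 for 6 astrocyte and Müller glia markers, of which Glul held most and Gfap reached at most 1.24 FPKM. The 4 horizontal cell markers in the table summed to 9.29 to 15.6 FPKM, with Lhx1 at 0 in every library. The 5 cortical neuron markers in the table summed to 10.9 to 15.5 FPKM in pairs A and B and to at least 60.7 in pair C, of which Neurod6 reached at most 0.382 FPKM and Slc17a7 57.5 FPKM, the latter in pair C. Pair C also stood apart in bipolar and photoreceptor markers (sums of 47.3 and 52.2, and 49.7 and 50.2 FPKM, against 11.3 to 13.8 and 2.55 to 6.03 in pairs A and B). Pair B stood apart in microglial markers (10.3 and 5.45 FPKM, against 102 to 135).

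The promoter windows of the highest and the lowest of the 9 genes, Hpcal1 and Hpcal4, are shown because these close relatives differed most in level. They run from 250 bases before to 50 after the gene start in RefSeq, build GRCr8. Capitals mark the GC box, GGGCGG, on either strand. Hpcal1 lies on chr6:46206644-46206943, plus strand, and Hpcal4 on chr5:140739658-140739957, plus strand.
Hpcal1: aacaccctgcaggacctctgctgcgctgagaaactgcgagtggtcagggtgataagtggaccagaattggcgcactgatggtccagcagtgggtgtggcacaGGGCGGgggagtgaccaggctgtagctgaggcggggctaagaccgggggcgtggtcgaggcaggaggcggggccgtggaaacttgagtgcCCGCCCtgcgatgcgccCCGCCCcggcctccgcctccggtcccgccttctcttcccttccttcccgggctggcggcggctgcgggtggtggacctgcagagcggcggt
Hpcal4: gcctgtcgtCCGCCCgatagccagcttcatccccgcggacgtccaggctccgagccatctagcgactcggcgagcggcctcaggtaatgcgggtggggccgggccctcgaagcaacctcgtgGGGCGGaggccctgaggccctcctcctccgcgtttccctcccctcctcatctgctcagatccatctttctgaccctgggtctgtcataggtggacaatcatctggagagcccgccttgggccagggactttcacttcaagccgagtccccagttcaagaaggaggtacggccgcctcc
The window of Hpcal1 held 3 GC boxes and 24 CG dinucleotides, and that of Hpcal4 held 2 GC boxes and 22 CG dinucleotides. A GC box was in 33.1% of 33469 RefSeq promoter windows of this length, whose median was 7 CG dinucleotides. TATAAA was in neither window on either strand, and in 14.2% of all. These are descriptions of the letters, and the table holds no measurement of these windows. Sequences were found for 6 of the 9 genes.

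Hpcal1 was the most abundant of the 9 mRNAs and Hpcal4 the least. On the FPKM scale Hpcal1 averaged 189 over the 6 libraries, at the 98.3rd percentile of tested transcripts. Calb2 followed at 64.2 FPKM, Ncald at 53.6, Ncs1 at 36.5, Calb1 at 34.8, Hpca at 32.7, Vsnl1 at 24.0, Pvalb at 10.3 and Hpcal4 at 3.64 FPKM. Hpcal1 was above Calb2 in 6 of 6 libraries by 2.44-fold to 3.72-fold, and above Hpcal4 by 41.8-fold to 68.0-fold. Some neighbours in this order could not be separated. Calb2 was above Ncald in 4 of 6 libraries and below it in both libraries of pair B. Ncs1 was above Calb1 in 3 of 6 libraries, and Calb1 above Hpca in 4 of 6, so the levels of these 3 genes interleaved. Ncald was above Ncs1, Hpca above Vsnl1 and Vsnl1 above Pvalb in 6 of 6 libraries with ranges that did not overlap. For Hpca and Vsnl1 this was narrow, at 1.02-fold in the Chrdl1 library of pair C (28.8 against 28.3 FPKM). Pvalb was above Hpcal4 in 6 of 6 libraries, by 1.28-fold to 4.19-fold, although their ranges overlapped across libraries.

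**Figure D1:**
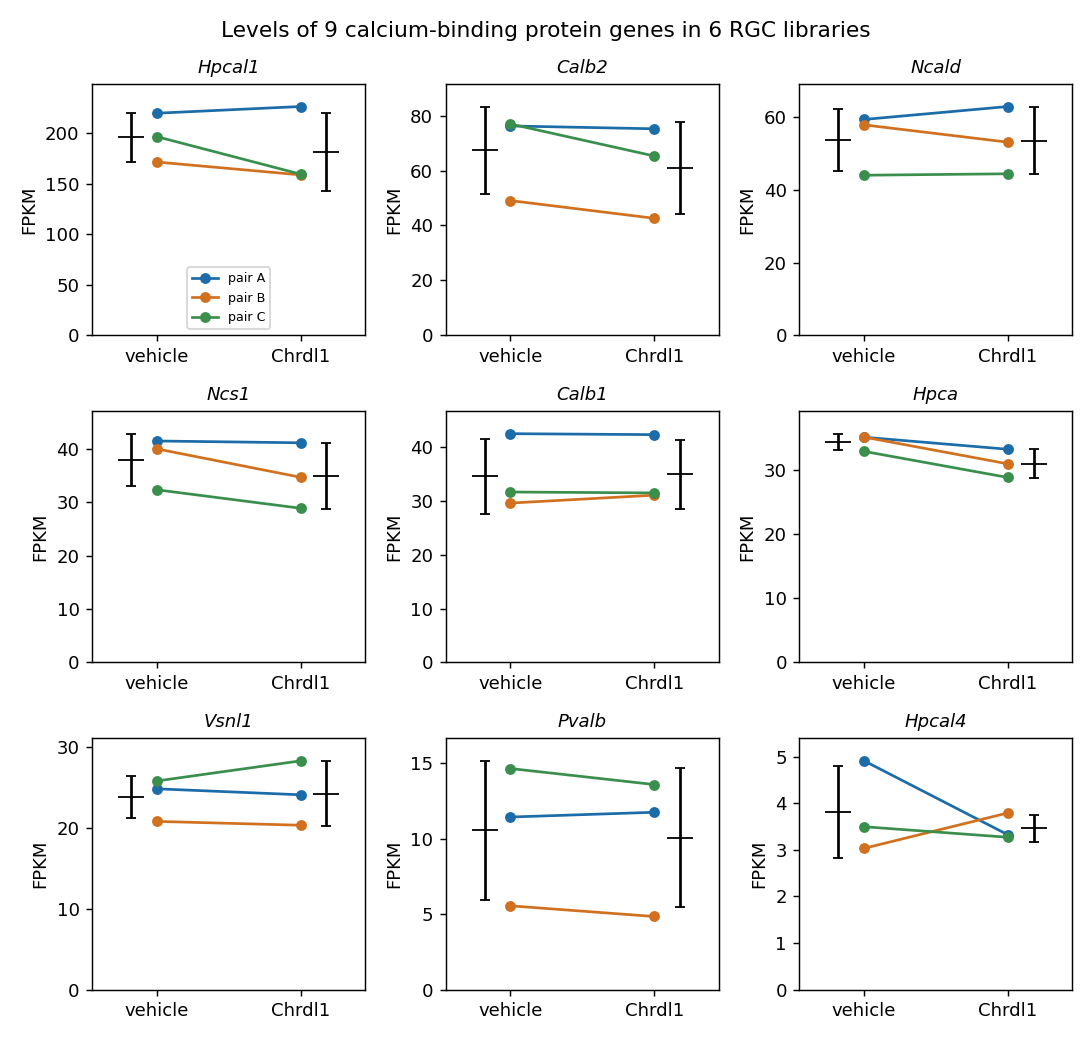
FPKM (vertical axis, from 0) of each gene by treatment. Coloured lines connect vehicle and Chrdl1 within a pair, and black marks give the group mean with its SD (n = 3). For most genes the pairs lie farther apart than the treatments, as for Pvalb, which runs from 4.85 to 14.7 FPKM.

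The 9 mRNAs summed to 380 to 520.2 FPKM per library. Hpcal1 made up 39.5% to 43.5% of that sum in every library, while Calb2 ranged from 11.2% to 16.8% and Pvalb from 1.28% to 3.37%, both lowest in pair B. Within the buffers, calretinin mRNA was 59.8% ± 2.33 (SD, n = 3) of the summed FPKM of Calb1, Calb2 and Pvalb with vehicle and 57.2% ± 2.59 (n = 3) with Chrdl1. The difference of -2.55 percentage points did not exceed the spread between libraries (two-sided exact permutation p = 0.4, where 3 against 3 allows 0.1 at the least). It was negative in all 3 pairs, at -0.392, -3.99 and -3.27 points in A, B and C (exact sign-flip p = 0.25, the smallest that 3 pairs allow). Another share set Hpca against Hpcal1, Hpcal4 and Ncald, without Vsnl1. Hpca was 12.0% ± 1.07 of the summed FPKM of Hpca, Hpcal1, Hpcal4 and Ncald with vehicle and 11.7% ± 1.27 with Chrdl1 (n = 3 each, exact permutation p = 0.7). The sign of this difference turned when the vehicle library of pair B (0.217 points) or the Chrdl1 library of pair A (0.382 points) was left out.

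**Figure D2:**
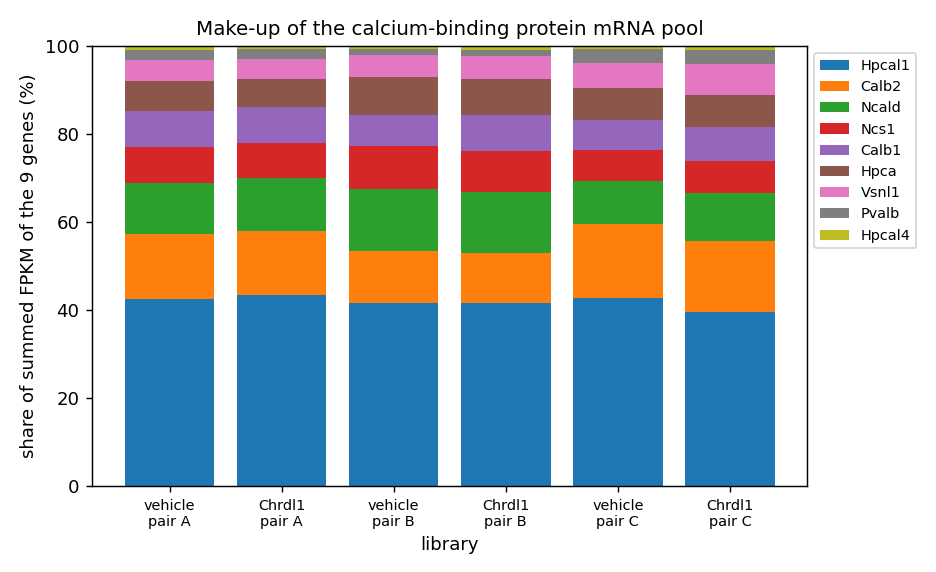
Share of each gene (vertical axis, percent) in the summed FPKM of the 9 genes, 1 bar per library. Hpcal1 holds 39.5% to 43.5% of every bar, and the Pvalb segment is thinnest in the 2 libraries of pair B.

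Chrdl1 and vehicle libraries were compared to ask whether 12 h of Chrdl1 changed the mRNA levels of these proteins. None of the 9 genes passed the test. In limma on log2(FPKM + 1), with p-values adjusted over all 10390 transcripts (Benjamini-Hochberg, called under 0.05), 0% of transcripts were called. The adjusted p of each of the 9 genes was 0.9998, and 0 of 9 had an unadjusted p under 0.05, against 18 of all tested. No gene of the 9 had vehicle and Chrdl1 libraries that did not overlap, which 2.44% of all tested transcripts had. The log2 fold change was negative for 7 of 9 genes and for 61.6% of all tested transcripts. Its median was -0.092 over the 9 genes and -0.028 over all.

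Among the buffers, Calb1 was nearly the same in both libraries of every pair. Its vehicle libraries (pairs A, B and C in turn, as in all such triplets) were at 42.5, 29.6 and 31.7 FPKM, and its Chrdl1 libraries at 42.3, 31.1 and 31.5 FPKM. The log2 fold change was 0.018 ± 0.18 (SE), and with the pair as a replicate block its 95% interval ran from -0.12 to 0.16. Calb2 was at 76.2, 49.1 and 77.0 FPKM in vehicle and at 75.2, 42.6 and 65.3 FPKM in Chrdl1 libraries, lower with Chrdl1 in every pair but least so in pair A. Its log2 fold change was -0.15 ± 0.25, with a block interval from -0.29 to -0.0071. That interval is not adjusted for the number of genes, and the limma adjusted p under the block was 0.872. Pvalb was at 11.4, 5.56 and 14.7 FPKM in vehicle and at 11.8, 4.85 and 13.6 FPKM in Chrdl1 libraries. It was higher with Chrdl1 in pair A and lower in pairs B and C, with a log2 fold change of -0.077 ± 0.43 and a block interval from -0.27 to 0.11.

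Among Hpca, Hpcal1, Ncald and Hpcal4, Hpca varied least. Hippocalcin, a sensor abundant in hippocampal neurons, was at 35.1, 35.1 and 32.9 FPKM in the vehicle libraries and at 33.2, 30.9 and 28.8 FPKM in the Chrdl1 libraries. The Chrdl1 library was the lower of every pair, and the groups overlapped only in that the vehicle library of pair C lay below the Chrdl1 library of pair A. The log2 fold change of Hpca was -0.15 ± 0.089, with a block interval from -0.29 to -0.0030 (limma adjusted p = 0.872 under the block). Hpcal1 was at 219.5, 171 and 196 FPKM in vehicle and at 226, 159 and 159 FPKM in Chrdl1 libraries. It was slightly higher with Chrdl1 in pair A, and the largest step down was in pair C, at -0.30 on the log2 scale. Its log2 fold change was -0.12 ± 0.17, with a block interval from -0.28 to 0.036. Ncald was at 59.4, 57.9 and 44.0 FPKM in vehicle and at 62.9, 53.1 and 44.4 FPKM in Chrdl1 libraries, without a common direction. Its log2 fold change was -0.0088 ± 0.17, and it turned positive with quantile normalization (0.029) and with each library centred on its median (0.0074). Hpcal4 was at 4.91, 3.03 and 3.50 FPKM in vehicle and at 3.33, 3.79 and 3.27 FPKM in Chrdl1 libraries. Its pairs disagreed most of the 9, with -0.45, 0.25 and -0.074 in A, B and C.

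Ncs1 and Vsnl1 also stayed within the spread. Ncs1, which binds phosphatidylinositol 4-kinase beta and modulates Kv4 potassium channels, was at 41.5, 40.0 and 32.4 FPKM in vehicle and at 41.2, 34.7 and 28.9 FPKM in Chrdl1 libraries. It was lower with Chrdl1 in every pair, by next to nothing in pair A (-0.012 on the log2 scale), with a log2 fold change of -0.12 ± 0.15 and a block interval from -0.27 to 0.023. Vsnl1 was at 24.8, 20.8 and 25.8 FPKM in vehicle and at 24.1, 20.3 and 28.3 FPKM in Chrdl1 libraries. Only pair C was higher with Chrdl1, and the log2 fold change was 0.018 ± 0.14, with a block interval from -0.14 to 0.17.

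Counted by pairs, 3 of the 9 genes (Calb2, Hpca and Ncs1) were lower with Chrdl1 in all 3 pairs, where 19.5% of all tested transcripts were, and 0 were higher in all 3, where 7.55% were. With the pair as a replicate block 0% of transcripts were called, and Calb2 and Hpca had an unadjusted p under 0.05 (0.0411 and 0.0460), as had 535 of all 10390. In pair C, fold changes of all transcripts went with length: the median was -0.19 for transcripts under 1000 bases, -0.12 for those of at least 1000 and under 2000 bases and 0.092 for those of at least 4000 bases, against -0.015, -0.015 and -0.0036 in pair A. Of the 9 transcripts, 6 are in the class of at least 1000 and under 2000 bases. In pair C, Hpcal1 (-0.30), Calb2 (-0.23), Hpca (-0.18) and Ncs1 (-0.16) lay below the median of that class, and Calb1 (-0.0074) and Vsnl1 (0.13) above it. Pvalb (-0.10) and Hpcal4 (-0.074), both under 1000 bases, lay above the median of their class. Ncald (0.012), of at least 2000 and under 4000 bases, also lay above its class median (-0.043). The part of this length trend in the differences was not tested. Leaving out 1 library turned the sign of 7 of the 9 fold changes, all but those of Hpca (-0.20 to -0.097) and Hpcal1 (-0.29 without the Chrdl1 library of pair A to -0.037), and gave no call.

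**Figure D3:**
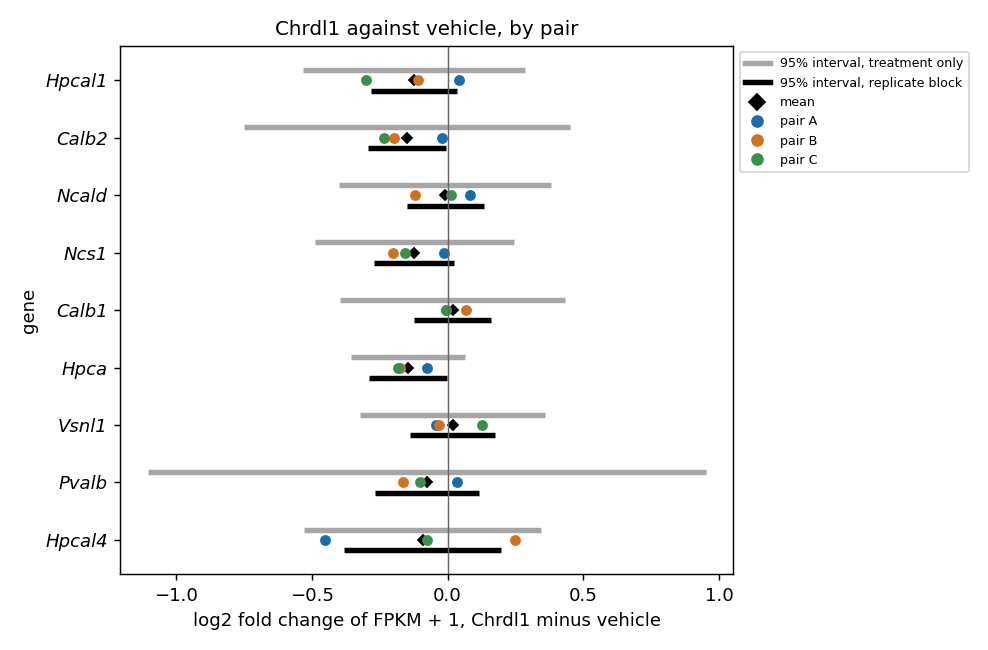
Log2 fold change of FPKM + 1, Chrdl1 minus vehicle (horizontal axis), for each gene. Coloured points are the 3 pairs, diamonds the mean, and grey and black bars the unadjusted 95% intervals without and with the replicate block. Grey bars all span 0, and the black bars of Calb2 and Hpca end just below 0.

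Most of the 9 genes differed between title codes. The median range between codes was 0.43 on the log2 scale over the 9 genes and 0.31 over all tested transcripts. In a limma F test over the 3 codes, with treatment as a term, 7 of 9 genes passed (Pvalb, Calb2, Calb1, Ncald, Ncs1, Hpcal1 and Vsnl1). Of all tested transcripts 47.4% passed. Hpca (adjusted p = 0.300) and Hpcal4 (0.454) did not pass. What differs between the codes is not stated, and in RNA of a whole culture fewer cells of a type and less RNA per cell cannot be told apart.

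Pvalb had the widest range. It averaged 11.6, 5.20 and 14.1 FPKM over pairs A, B and C, so that both libraries of pair B lay below, and both of pair C above, the other 4. Both of pair C lay highest for 2 of the 9 genes (Pvalb and Vsnl1), where 23.4% of all tested transcripts did. The difference of pair C minus pair B was 1.29 on the log2 scale (limma F test adjusted p = 2.46e-06). Calb2 averaged 75.7, 45.8 and 71.1 FPKM, a difference of -0.72 for pair B minus pair A (adjusted p = 3.17e-05). Vsnl1 was likewise lowest in pair B and highest in pair C, at 24.5, 20.6 and 27.0 FPKM (adjusted p = 0.0104). These 3 genes shared the low value of pair B, and the averages of Calb1 and Hpcal1 were also lowest there.

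The other genes that passed were highest in pair A, as was the average of Calb2. Calb1 averaged 42.4, 30.3 and 31.6 FPKM over pairs A, B and C (adjusted p = 0.000813), and Hpcal1 averaged 223, 165 and 178 FPKM (adjusted p = 0.00435). Ncald averaged 61.2, 55.5 and 44.2 FPKM (adjusted p = 0.00166), and Ncs1 averaged 41.4, 37.4 and 30.6 FPKM (adjusted p = 0.00367). Ncald and Ncs1 were lowest in pair C, whereas Calb1 and Hpcal1 were low in both pairs B and C. Both libraries of pair A lay above the other 4 for 4 of the 9 genes (Calb1, Hpcal1, Ncald and Ncs1), where 13.6% of all tested transcripts did, and for 0 of the 9 they lay below, where 22.7% did. Both libraries of pair B lay below the other 4 for 4 of the 9 (Calb1, Calb2, Pvalb and Vsnl1), where 20% did.

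The code with the highest level was the same for each of the 9 genes in the deposited FPKM, after quantile normalization, after median centring and with voom on recovered reads. The lowest code of Hpcal1 became pair C after quantile normalization, which reduced its range between codes from 0.43 to 0.18 (adjusted p = 0.0447), and the lowest code of Calb1 became pair C after median centring. Median centring moved the median difference of all transcripts, pair C minus pair A, from 0.069 to -0.045, and Hpca then passed (range 0.26, adjusted p = 0.0398). Without the Chrdl1 library of pair A, Hpcal1 (adjusted p = 0.211) and Ncs1 (0.0550) no longer passed and 3148 transcripts were called in place of 4930. Without the Chrdl1 library of pair B, Vsnl1 no longer passed (0.0627).

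**Figure D4:**
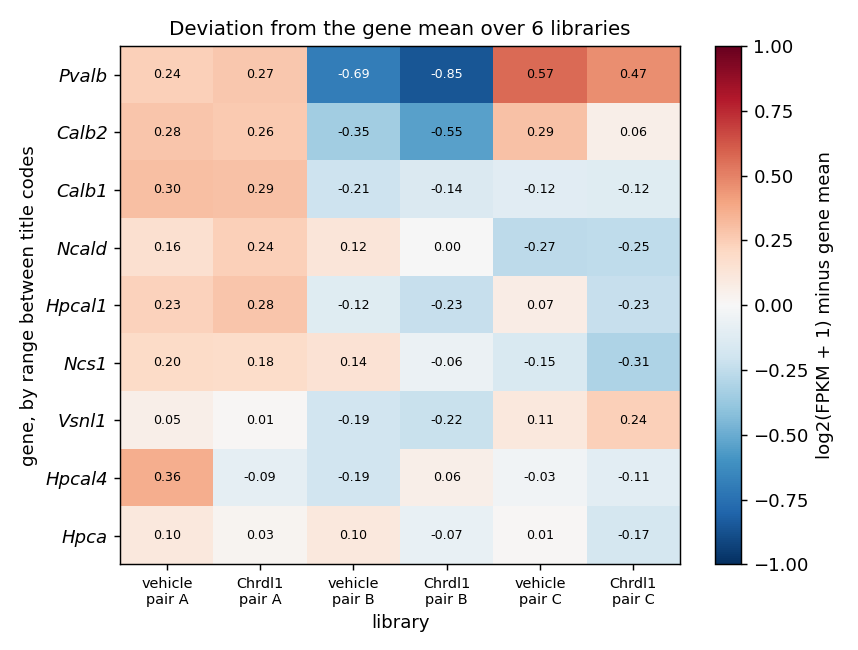
Log2(FPKM + 1) of each gene minus its mean over 6 libraries (colour and printed value), with libraries on the horizontal axis ordered by pair and genes on the vertical axis by range between title codes. Pvalb and Calb2 are lowest in the 2 libraries of pair B, and Ncald and Ncs1 in the 2 of pair C.

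By Pearson correlation of log2(FPKM + 1), the 3 genes most like Pvalb over the 6 libraries were Tagln (r = 0.999), an actin-binding protein of smooth muscle, Notch3 (r = 0.998), a receptor of vascular mural cells, and Col1a1 (r = 0.998), a chain of type I collagen. The 6 libraries form only 3 pairs, so such values are easily reached, and 462 other transcripts had r over 0.95 with Pvalb. Tagln averaged 108, 17.0 and 164 FPKM over pairs A, B and C, and Col1a1 averaged 4.54, 0.448 and 7.35 FPKM. Notch3, at low levels throughout, averaged 1.26 FPKM over pair A and 1.77 over pair C. Col1a1 and Notch3 were under 1 FPKM in both libraries of pair B and passed the filter through the other pairs. Beside this, the 6 microglial markers summed to 102 to 135 FPKM outside pair B and to 10.3 (vehicle) and 5.45 FPKM (Chrdl1) within it, with Cx3cr1 at most 0.063 FPKM. The sum of the amacrine markers was at most 64.9 FPKM in pair A, 78.7 (vehicle) and 75.9 (Chrdl1) for pair B, and 73.9 and 77.6 for pair C. Gad2, at 51.2 to 68.3 FPKM, held most of that sum and was highest in pair B. Slc32a1, by contrast, was no higher than 0.347 FPKM in pair B but reached 2.88 in pair C, and Tfap2b, Slc6a9 and Chat were also lowest in pair B. Gad1 was lowest in pair A (1.90 FPKM with vehicle and 1.64 with Chrdl1, against 1.93 and 1.95 in pair B). Tfap2a values of pairs A and B interleaved. Of these markers Slc32a1, Tfap2a, Tfap2b and Chat were below the filter and not tested, and Slc6a9 did not pass between codes (limma F test adjusted p = 0.182). The RGC marker sum, most of it Sncg and Nefl, ran from 1971 to 2328 FPKM. Of its 7 members 6 differed between codes (limma F test), where 47.4% of all tested transcripts did. Thy1 was lowest in pair B (153 and 133 FPKM) and highest in pair C (271 and 245), whereas Rbpms, Pou4f2, Isl1 and Slc17a6 were highest in pair B. The part of other cells in the levels of Pvalb and Calb2 was not tested. For Hpcal1, the most alike were Ppp2r1a (r = 0.997), a scaffold subunit of protein phosphatase 2A, Tubb4a (r = 0.995), a beta-tubulin, and Tmx2 (r = 0.994), a thioredoxin-related membrane protein.

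**Figure D5:**
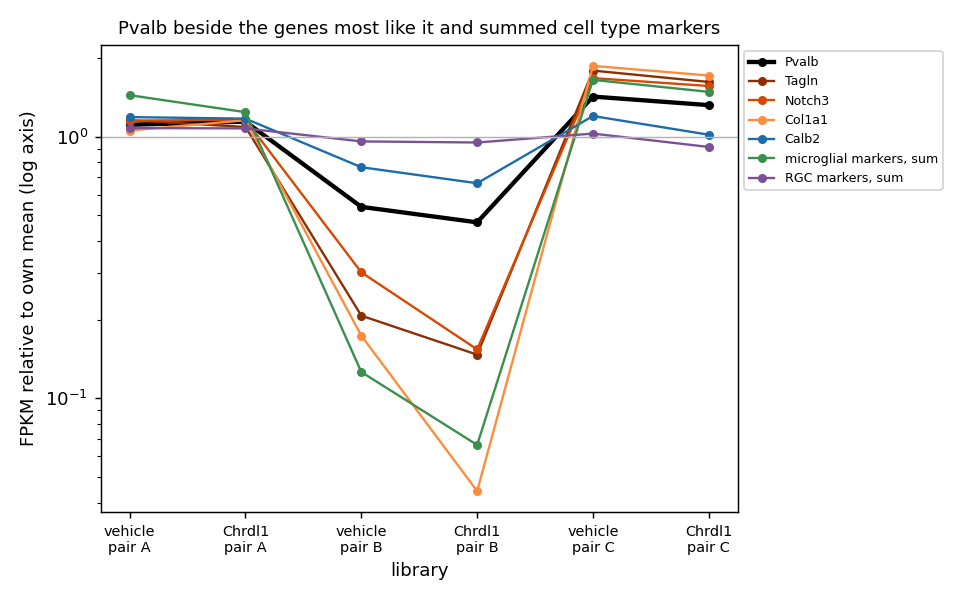
FPKM relative to the mean of each series over 6 libraries (vertical log axis), by library ordered by pair, with lines only to guide the eye. Pvalb is at 0.539 and 0.470 of its mean in pair B, Tagln, Notch3, Col1a1 and the microglial sum are lower still, and the RGC marker sum, whose members differ in direction, lies between 0.913 and 1.08.

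Other genes of calcium sensing and handling did not pass the test of Chrdl1 against vehicle either. Of 7 other neuronal calcium sensors 3 were tested, 0 passed, and the median log2 fold change was -0.18. Kcnip1, a potassium channel interacting protein of the same family, was at 50.3 ± 3.70 FPKM with vehicle and 50.2 ± 8.38 with Chrdl1 (SD, n = 3 each), a level near that of Ncald. Kcnip4 was at 11.2 ± 1.65 and 9.87 ± 2.55 FPKM, and Kcnip3 at 1.25 ± 0.598 and 0.925 ± 0.520 FPKM. Of 10 calmodulin and calmodulin-like genes 5 were tested and 0 passed. Their fold changes, with a median of -0.069, were negative for 5 of 5, where 61.6% of all tested transcripts were negative. Calm3 and Calm2, which encode the same calmodulin protein, averaged 599 and 358 FPKM, both above Hpcal1, and Cabp1, a calmodulin relative that regulates calcium channels, averaged 71.9 FPKM. How reads that match more than 1 gene were counted is not given in the sources used here. Of 10 other genes of EF-hand proteins, not all of them calcium buffers, 7 were tested and 0 passed, with a median of -0.030. S100a10, an annexin partner, averaged 285 FPKM, S100a6 15.7, Necab2 9.58 and S100a13 5.19 FPKM.

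Pumps, exchangers and stores had a median log2 fold change of 0.027, with 10 of 14 tested genes positive and 0 passing. Of all tested transcripts, 61.6% had a negative fold change. The median over all was -0.076 for transcripts under 1000 bases and 0.021 for those of at least 4000 bases. The part of this length trend in the medians of the gene lists was not tested. Calr, the calreticulin of the endoplasmic reticulum, averaged 199.7 FPKM, Atp2a2, its calcium pump, 97.9 FPKM, Rcn2 67.3 FPKM, and Slc8a1, a sodium-calcium exchanger, 56.6 FPKM. Partners of the sensors and calcium-calmodulin enzymes had a median of 0.0013, with 11 of 21 tested genes positive and 0 passing. Ap2m1, a subunit of the endocytic adaptor that hippocalcin binds, averaged 435 FPKM, Cltc, the clathrin heavy chain, 145 FPKM, Camk2d, a calmodulin-dependent kinase, 128 FPKM and Ppp3r1, the calcineurin regulatory subunit, 91.1 FPKM. Between title codes, 3 of 3 other sensors, 4 of 5 calmodulin-like genes, 6 of 7 other EF-hand genes, 8 of 14 pump and store genes and 10 of 21 partners passed, where 47.4% of all tested transcripts did.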

How the data were processed

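RNA was made into stranded mRNA libraries, per the labels. The authors deposited 1 table of FPKM values with transcript lengths. FastQC, STAR 2.4.0k, HOMER 4.8.3 and build rn6 are named in the submitters' processing notes. The annotation release is not given in the sources used here. Read totals were recovered as the number that turns FPKM times length into whole reads (99.7% or more of values above 0 in each library, within 0.0005 FPKM of rounding). A transcript was tested if 3 or more libraries reached an FPKM of 1, which 10390 did. Tests were run on log2(FPKM + 1), a scale that understates changes of low genes, with limma 3.58.1 in R 4.3.3 (lmFit, eBayes with trend, two-sided, Benjamini-Hochberg over all of them). The scripts were tested on simulated data. Shares were compared with exact permutation tests in Python 3.11.15.

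Codes in the titles were taken to pair the libraries: deviations from group means correlated at 0.82, 0.86 and 0.84 within codes A, B and C, and from -0.69 to -0.22 across codes. Deviations from a group mean cancel within the group, so the negative values across codes follow from the positive ones and add no separate evidence. Members and gene lists were chosen with earlier results of these data known. Named genes were the 9 members, the up to 4 most abundant tested genes of each list, and the 3 genes most alike the most abundant and the most variable member. A gene of 1 list is not reported here. Alternatives were pseudocounts of 0.1 and 0.5, other filters, quantile normalization, median centring, voom on recovered reads, the replicate block, and leaving out libraries. Leaving out both libraries of a pair was added after seeing the data. The 6 promoter sequences found come from RefSeq (GRCr8).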

Additional observations from a re-analysis of the deposited data

How the results depend on the processing

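With the replicate block, limma called 0 genes and 0 of the 9 members, as without it. Under the pseudocounts, filters, normalizations and voom, the Chrdl1 comparison also called 0, and 7 of 9 members differed between codes, or 8 with median centring (with the filter at FPKM of 5, Hpcal4 was not tested). The fold change of Ncald turned to 0.029 with quantile normalization and 0.0074 with median centring. Leaving out 1 library, so that its code stood in 1 group only, gave 0 calls for Chrdl1. The fold changes then ran from -0.12 to 0.17 for Calb1, -0.36 to 0.084 for Calb2, -0.44 to 0.33 for Pvalb, -0.20 to -0.097 for Hpca, -0.29 to -0.037 for Hpcal1, -0.21 to 0.065 for Hpcal4, -0.14 to 0.12 for Ncald, -0.25 to 0.0021 for Ncs1 and -0.095 to 0.13 for Vsnl1. The calls between codes ran from 3148 to 5581 transcripts and from 5 to 7 members, with 1 residual degree of freedom. The calretinin share difference ran from -3.53 to -1.08 points and that of Hpca from -0.849 to 0.382. Without both libraries of pair A or B, the block fit called 25 or 34 transcripts, 0 of them members, and the cause was not tested. Then Hpcal4 turned to 0.087 (without A), Calb1 to -0.0067 and Ncald to 0.048 (without B), and Vsnl1 to -0.037 (without C). Depth limits Hpcal4 and Pvalb most, at 29 and 43 reads in the shallowest library.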

Other observations

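Calcium sensors of photoreceptors and bipolar cells were low and highest in pair C, where the bipolar and photoreceptor marker sums were also highest. Rcvrn is itself one of the photoreceptor markers and Cabp5 one of the bipolar markers, so this likeness is partly built in. The sensors were chosen after their values were seen and fell below the filter on low values, so they have no test. Rcvrn, the photoreceptor sensor recoverin, averaged 0.318, 0.182 and 2.82 FPKM over pairs A, B and C, and Guca1b, which activates photoreceptor guanylate cyclase, averaged 0.325, 0.249 and 4.88 FPKM. Cabp5, a calmodulin relative of bipolar cells, averaged 0.0775, 0.220 and 3.01 FPKM. Of the markers, Crx, a photoreceptor transcription factor also found in bipolar cells, was at 44.4 and 45.5 FPKM in pair C and at most 4.88 FPKM elsewhere. S100a6, an S100 protein and not one of these sensors, averaged 5.10, 2.95 and 39.0 FPKM over pairs A, B and C (limma F test adjusted p = 1.26e-06). Its libraries of pair B were unlike, with Chrdl1 minus vehicle at -1.68 on the log2 scale and the Chrdl1 library at 0.881 FPKM.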
